A study of Mus musculus with 6 samples.

Results

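The genes described here are 8 genes of cholesterol synthesis in mouse bone marrow: Hmgcs1, Idi1, Fdps, Fdft1, Sqle, Lss and Cyp51, which encode enzymes, and Srebf2, which encodes a transcription factor of the pathway. They were chosen by symbol, with earlier results of these data known. Every probe set to which the array's annotation gives exactly 1 symbol, that symbol being one of these, was taken, which gave 22 of the 45037 probe sets tested, and all 8 genes among 18193. Marrow came from adult female (AKR/J x FVB/NJ)F1 mice, called AKR/FVB here, and adult female (DBA/2J x FVB/NJ)F1 mice, called DBA/FVB here, with 3 arrays each. Both crosses share FVB/NJ, so the mice differ in their other parent. The stated question was which genes differ in basal expression between the genotypes. RNA was measured on Affymetrix arrays, on which a probe set is a group of short probes against 1 transcript or a few. The mice were killed under Avertin anesthesia, and the labels do not say whether each array is 1 animal, so the p-values reflect only the variation among these samples, which may be technical. Whole marrow was used, in which fewer cells of a type and less RNA per cell cannot be told apart.

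Cholesterol is made from acetyl-CoA. The early steps give isoprenoid diphosphates, which also feed the synthesis of dolichol, ubiquinone and the lipid anchors of proteins, and the later steps close the squalene chain into sterol rings. When sterols are scarce in the endoplasmic reticulum, SREBP proteins, of which Srebf2 encodes the one that mainly drives cholesterol genes, are carried to the Golgi, cut free and enter the nucleus, where they act on promoters together with NF-Y and Sp1. Dividing cells of the marrow need sterols for new membranes, and macrophages there take up and export cholesterol from the cells they clear.

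The genes with a call differed in both directions. The isoprenoid enzymes Hmgcs1 and Idi1 were lower in AKR/FVB marrow at 2 probe sets each, by log2 differences of -0.42 to -0.58, while Srebf2 was higher at 1 of its 2 probe sets, by 0.61. None of the probe sets of Fdps, Fdft1, Sqle, Lss or Cyp51 passed the test. Each difference is the AKR/FVB mean less the DBA/FVB mean in log2 units, with the standard error (SE) of limma's fit over all 6 arrays, and a call means a Benjamini-Hochberg adjusted p below 0.05 over all probe sets. By this rule 5 of the 22 probe sets (22.7%) were called, 4 lower and 1 higher, where 12.3% of all probe sets were called, 6.73% lower and 5.57% higher. After quantile normalization 6 were called, 4 lower and 2 higher. The median difference over the 22 was -0.02, against 0.03 over all probe sets. Of the 22, 14 lay above the median of all probe sets and 4 below its lower quartile, and no filter on level was used in the test. With only probe sets above the median level fitted, 6 of 14 were called, 2 higher and 4 lower, against 5573 of 22518. The groups did not overlap at 11 of the 22 (50%), 5 with AKR/FVB above (22.7%) and 6 with it below (27.3%), against 33% of all probe sets (18.1% above and 14.9% below). As the genes were chosen with earlier results of these data known, these shares are a description.

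**Figure D1:**
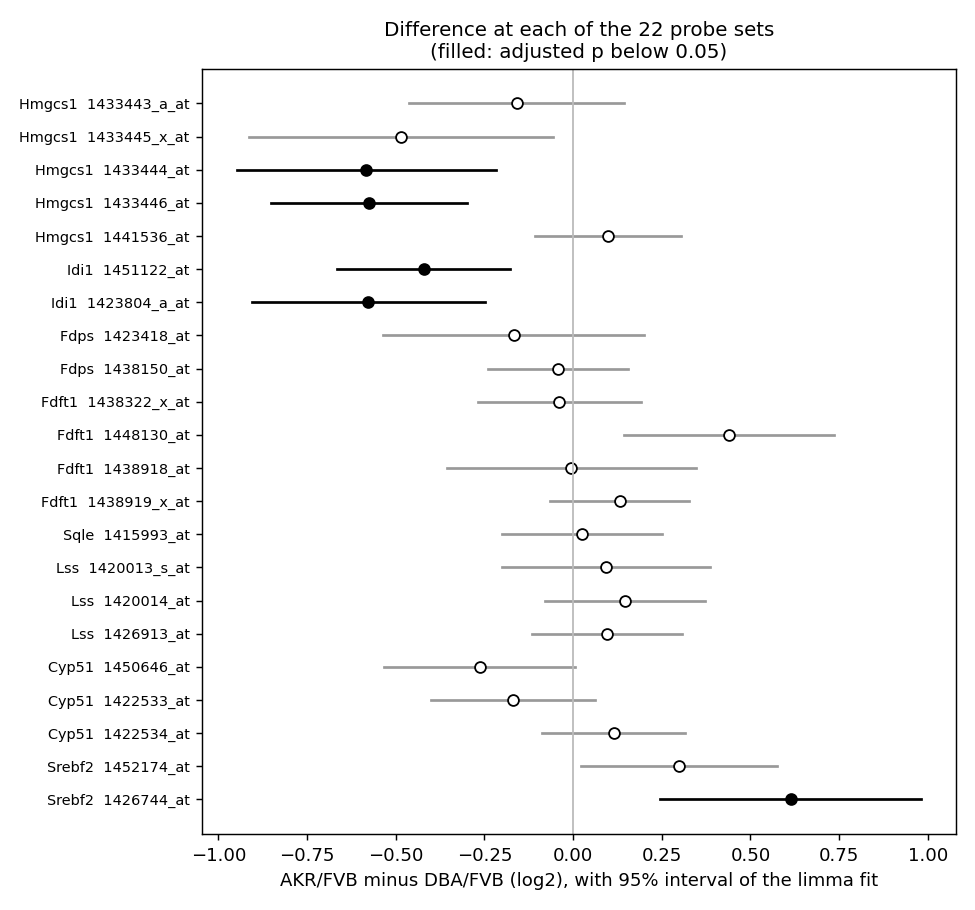
Log2 difference AKR/FVB minus DBA/FVB at each of the 22 probe sets, with its 95% interval from the limma fit of 3 against 3 arrays. Filled points passed the test: 2 of Hmgcs1 and both of Idi1 on the lower side, and 1 of Srebf2 on the higher side.

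The promoters of the 3 genes with a called probe set are shown because these genes are the ones the comparison turns on. RefSeq's table for assembly GRCm38.p6 holds 5 of the 8 genes, and the 250 bases before the start of the gene are printed, 5′ to 3′ along the gene. Capitals mark 3 motifs on either strand: the core of a sterol regulatory element, searched as TCACNCCA, the NF-Y box CCAAT, which reads ATTGG on the other strand, and the Sp1 box GGGCGG, which reads CCGCCC on the other strand. No match of one motif overlapped a match of another.
Hmgcs1 promoter, chr13:119690101-119690350, + strand: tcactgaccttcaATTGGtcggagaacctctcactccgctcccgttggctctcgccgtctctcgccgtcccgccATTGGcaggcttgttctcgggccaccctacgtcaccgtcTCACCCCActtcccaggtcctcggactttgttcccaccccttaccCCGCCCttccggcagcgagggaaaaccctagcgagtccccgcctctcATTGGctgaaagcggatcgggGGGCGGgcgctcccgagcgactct
Idi1 promoter, chr13:8885356-8885605, + strand: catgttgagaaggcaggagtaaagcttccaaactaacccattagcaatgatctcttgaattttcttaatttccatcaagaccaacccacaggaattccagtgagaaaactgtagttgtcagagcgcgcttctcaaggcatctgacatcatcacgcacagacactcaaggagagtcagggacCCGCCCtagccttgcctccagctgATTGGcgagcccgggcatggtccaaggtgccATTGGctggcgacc
Srebf2 promoter, chr15:82147019-82147268, + strand: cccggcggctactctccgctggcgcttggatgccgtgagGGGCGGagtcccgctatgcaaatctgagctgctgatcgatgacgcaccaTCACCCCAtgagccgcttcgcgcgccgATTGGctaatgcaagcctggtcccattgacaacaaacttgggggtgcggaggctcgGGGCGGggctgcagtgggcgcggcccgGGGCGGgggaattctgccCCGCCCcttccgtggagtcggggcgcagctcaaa
The sterol element core was found once in Hmgcs1, 137 bases before the gene's start, and once in Srebf2, 162 bases before it, as it was in 3.67% of 32851 promoter windows of this length. It was searched with these sequences in view, so its presence is a description. NF-Y boxes numbered 3 in Hmgcs1, 2 in Idi1 and 1 in Srebf2, where 33.8% of all windows held at least 1, and Sp1 boxes numbered 2, 1 and 4, where 32.7% did. The windows of Lss and Cyp51 held 1 NF-Y box each, with 2 and 1 Sp1 boxes, and no match to the sterol element core. Hmgcs1 and Srebf2, which share that core here, differed in opposite directions at their called probe sets, and neither was called at its brightest. The part of these motifs in the differences was not tested.

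Hmgcs1 encodes the cytosolic synthase that joins acetyl-CoA to acetoacetyl-CoA and so makes HMG-CoA, the substrate of the committed step. It was read by 5 probe sets, and these did not all give the same picture. At probe set 1433446_at the log2 values were 6.61, 6.52 and 6.47 in AKR/FVB, against 7.34, 7.06 and 6.92 in DBA/FVB. The difference of -0.57 (SE 0.12) passed the test (limma adjusted p = 0.021), and every AKR/FVB array lay below every DBA/FVB array. At 1433444_at the values were 8.11, 8.04 and 8.05 in AKR/FVB, against 9.003, 8.63 and 8.32 in DBA/FVB, a difference of -0.58 (SE 0.16, limma adjusted p = 0.049), just inside the threshold. This call was lost with median centring (limma adjusted p = 0.059). The groups did not overlap at this probe set either, and the spread was wider in DBA/FVB (SD 0.34) than in AKR/FVB (SD 0.035).

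The 3 other Hmgcs1 probe sets did not pass. At 1433445_x_at, whose suffix marks probes that may also bind other transcripts, the values were 8.44, 8.23 and 8.28 in AKR/FVB, against 9.27, 8.62 and 8.52 in DBA/FVB, with no overlap (difference -0.49, SE 0.19, limma adjusted p = 0.14). The brightest, 1433443_a_at, was at 8.49, 8.76 and 8.62 in AKR/FVB, against 9.01, 8.78 and 8.56 in DBA/FVB, and these groups overlapped (difference -0.16, SE 0.13, limma adjusted p = 0.49). A probe set near the floor of the arrays, 1441536_at, averaged 3.34 ± 0.015 in AKR/FVB and 3.24 ± 0.10 in DBA/FVB (SD, n = 3 each). The log2 ratio of 1433444_at to 1433443_a_at within an array averaged -0.56 ± 0.17 in AKR/FVB and -0.13 ± 0.12 in DBA/FVB (SD, n = 3 each). This gap of -0.42 had p = 0.10 in a two-sided exact permutation test, the smallest that 3 against 3 arrays can give (adjusted p = 0.15 over the 3 such pairs tested), so this test could not pass. The ratios did not overlap, at -0.38, -0.72 and -0.57 in AKR/FVB, against -0.005, -0.15 and -0.24 in DBA/FVB. In each such pair the gene's probe set with the largest difference was set over its brightest. A gap between the groups follows in part from that choice, so these ratios are a description.

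Idi1 encodes isopentenyl diphosphate isomerase, which interconverts the pair of building blocks of all isoprenoids. Its 2 probe sets both fell. At 1451122_at the values were 8.18, 8.17 and 8.24 in AKR/FVB, against 8.67, 8.75 and 8.42 in DBA/FVB, a difference of -0.42 (SE 0.11, limma adjusted p = 0.038). At 1423804_a_at they were 6.42, 6.49 and 6.46 in AKR/FVB, against 7.17, 7.23 and 6.70 in DBA/FVB, a difference of -0.58 (SE 0.14, limma adjusted p = 0.036). The AKR/FVB arrays were close to each other at both probe sets, DBA/FVB replicate 3 was the lowest of its group, and the groups did not overlap. As ratios of AKR/FVB to DBA/FVB these differences were 0.747 and 0.670. The probe set of Idi2, a close copy of Idi1, was near the floor, at 3.08 ± 0.13 in AKR/FVB and 3.19 ± 0.11 in DBA/FVB (SD, n = 3 each).

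**Figure D2:**
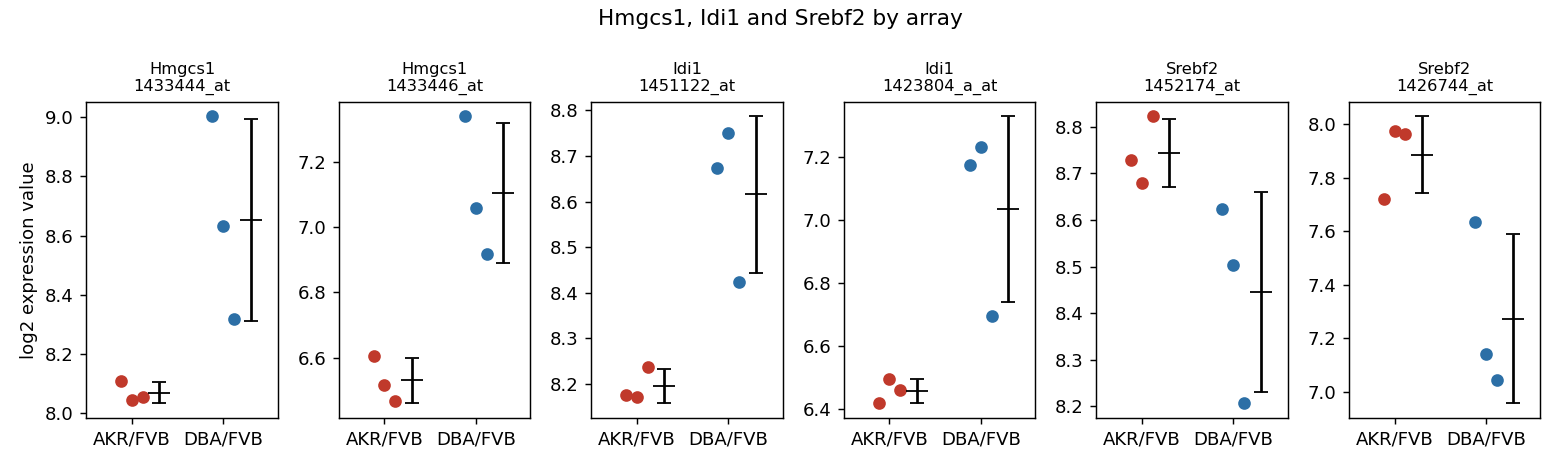
Log2 expression value of each array at the called probe sets of Hmgcs1 and Idi1 and at both probe sets of Srebf2, AKR/FVB in red and DBA/FVB in blue, with mean and SD (n = 3 each) at the right of each group; each panel has its own value axis. The AKR/FVB arrays lie below all DBA/FVB arrays for Hmgcs1 and Idi1 and above them for Srebf2.

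Srebf2 went the other way from these enzymes. At 1426744_at it was at 7.72, 7.98 and 7.96 in AKR/FVB, against 7.63, 7.14 and 7.04 in DBA/FVB. It was higher in AKR/FVB by 0.61 (SE 0.16, limma adjusted p = 0.043), a ratio of 1.53, although DBA/FVB replicate 1 lay close to the lowest AKR/FVB array. At 1452174_at, the brighter probe set, the values were 8.73, 8.68 and 8.82 in AKR/FVB, against 8.62, 8.504 and 8.21 in DBA/FVB. The groups did not overlap there, but the difference of 0.30 (SE 0.12) did not pass (limma adjusted p = 0.15). The ratio of the 2 probe sets within an array, set up as for Hmgcs1, differed between the groups by 0.32 (p = 0.20, two-sided exact permutation test).

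The enzymes between Idi1 and the sterol rings gave no call. Fdps encodes the synthase of farnesyl diphosphate, the last isoprenoid shared by the sterol and protein-anchor branches. Its brighter probe set, 1423418_at, was at 8.43, 8.18 and 8.31 in AKR/FVB, against 8.75, 8.55 and 8.12 in DBA/FVB, and the AKR/FVB values lay inside the DBA/FVB range. The difference of -0.17 had a 95% interval from -0.54 to 0.20, which holds differences as large as that of 1451122_at of Idi1. The other Fdps probe set lay near the floor, at 2.91 ± 0.036 in AKR/FVB and 2.95 ± 0.069 in DBA/FVB (SD, n = 3 each).

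Fdft1 encodes squalene synthase, the first enzyme that commits farnesyl diphosphate to sterols. At 1448130_at it was at 8.07, 8.04 and 7.97 in AKR/FVB, against 7.79, 7.65 and 7.31 in DBA/FVB, with no overlap. This difference of 0.44 (SE 0.13) lay just outside the threshold (limma adjusted p = 0.062) and passed after quantile normalization (limma adjusted p = 0.039). The brightest probe set, 1438322_x_at, has a suffix that marks probes that may also bind other transcripts. It was at 8.35, 8.64 and 8.51 in AKR/FVB, against 8.48, 8.55 and 8.59 in DBA/FVB (difference -0.04, SE 0.10). The remaining 2 probe sets differed by -0.005 and 0.13. The ratio of 1448130_at to 1438322_x_at within an array, a pair picked as for Hmgcs1, differed between groups by 0.48 (p = 0.10, the smallest possible in a two-sided exact permutation test).

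Sqle, the epoxidase that adds oxygen to squalene, has 1 probe set. Its values were 8.11, 7.84 and 7.89 in AKR/FVB, against 7.94, 7.94 and 7.89 in DBA/FVB, and the groups overlapped. The 95% interval of the difference ran from -0.20 to 0.25, so a change as large as that of 1423804_a_at of Idi1 lies outside it. Lss encodes lanosterol synthase, which folds the epoxide into the first sterol. Its 3 probe sets differed by 0.093 to 0.15, and the brightest, 1420013_s_at, was at 6.42, 6.64 and 6.54 in AKR/FVB, against 6.20, 6.65 and 6.47 in DBA/FVB. Cyp51 encodes the demethylase that acts on lanosterol. At 1450646_at it was at 5.89, 5.96 and 5.84 in AKR/FVB, against 6.28, 6.27 and 5.92 in DBA/FVB, and only DBA/FVB replicate 3 fell within the AKR/FVB range. That difference was -0.26 (SE 0.12, limma adjusted p = 0.19), and the 2 remaining Cyp51 probe sets gave -0.17 and 0.11. Fitted by gene with array weights, Cyp51 passed (limma adjusted p = 0.032).

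Read as 1 value per gene, from the brightest probe set, 1 of the 8 genes was called, Idi1 (limma adjusted p = 0.032), where 15.2% of all genes were called, 9.2% higher and 6.04% lower. That gene was lower, 3 of the 8 had a positive difference, and the median was -0.10, against 0.06 over all genes. With only probe sets above the median level fitted, 1 of the 8 genes was called, against 2958 of 11549 genes. The groups did not overlap for 2 of the 8, Idi1 and Srebf2, 1 in each direction (25%), against 36.7% of all genes (23% above and 13.7% below in AKR/FVB). The mean of the 8 genes was 7.824, 7.859 and 7.846 in AKR/FVB, against 7.995, 7.998 and 7.773 in DBA/FVB. DBA/FVB replicate 3 was the lowest of all 6 arrays on this mean, and the other DBA/FVB arrays were the highest.

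The number of calls depended on which arrays were used. Without AKR/FVB replicates 1, 2 and 3 the count of 5 called probe sets became 1, 0 and 0, without DBA/FVB replicate 2 it became 0, and at an unadjusted p below 0.05 limma counted 6 to 7 of the 22 in these 4 fits, against 8 with all arrays. Without DBA/FVB replicate 1 it became 3, 2 higher and 1 lower, and without DBA/FVB replicate 3 it was again 5, all lower, of which 4 were those of Hmgcs1 and Idi1. In that fit 1450646_at of Cyp51 passed (-0.38, limma adjusted p = 0.046) and Srebf2 did not. The gene count of 1 became 0 without any 1 array other than DBA/FVB replicate 3 (1 or 2 genes at an unadjusted p below 0.05 in limma), and without that array it was 2, both lower. All 5 probe sets kept their sign in all 6 fits, and 1433446_at of Hmgcs1 passed in 3 of them, each of the others in 1. Calls over all probe sets also fell, to 1683 of 45037 without AKR/FVB replicate 3, against 5541 with all arrays.

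**Figure D3:**
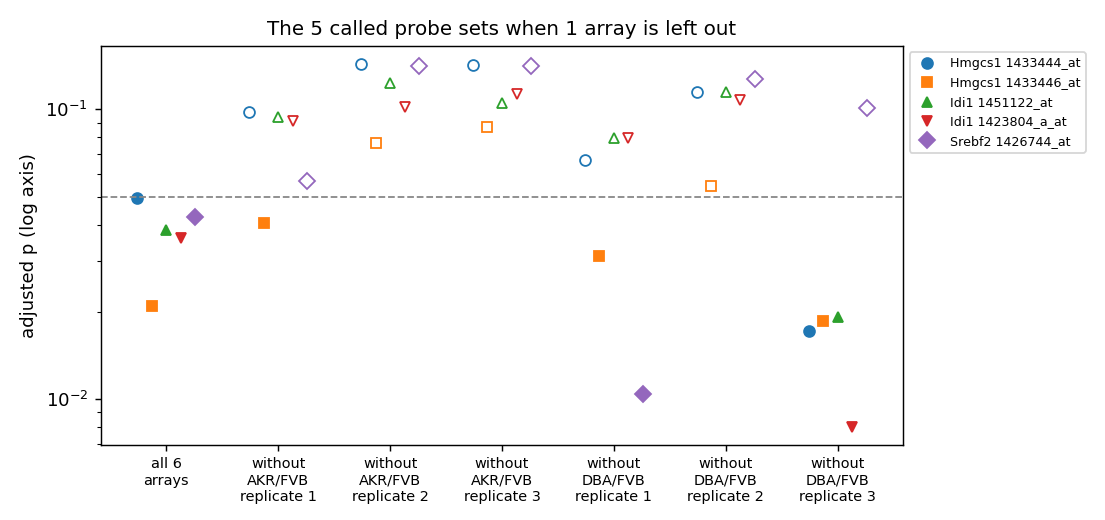
Adjusted p (log axis) of the 5 called probe sets with all 6 arrays and with each array left out in turn; the dashed line is the threshold of 0.05 and filled symbols passed. Without DBA/FVB replicate 3 the 4 probe sets of Hmgcs1 and Idi1 passed and Srebf2 did not, and without DBA/FVB replicate 1 the probe set of Srebf2 and 1 of Hmgcs1 passed.

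Some other measures differed between the same arrays, and others overlapped. Neutrophil markers averaged 13.47 to 13.56 in AKR/FVB, against 13.08 to 13.48 in DBA/FVB, with a slight overlap. Red cell markers averaged 11.05 to 11.07 in AKR/FVB, against 10.85 to 10.99 in DBA/FVB. Of 10 neutrophil markers 1 was called, higher, and of 8 red cell markers 2, both higher, where 15.2% of all genes were called. Of 9 B cell markers 1 was higher, Cd79a (1.32), and 2 were lower, Ms4a1 (-0.99) and Ebf1 (-0.86), and the list means overlapped, at 8.80 to 9.40 in AKR/FVB, against 9.01 to 9.17 in DBA/FVB. Of 10 skeletal muscle markers 8 were lower in AKR/FVB and none higher, and their mean was 6.88 to 8.19 in AKR/FVB, against 8.97 to 11.77 in DBA/FVB. Of 10 macrophage markers 5 were higher and none lower, with means of 9.32 to 9.57 in AKR/FVB, against 8.94 to 9.09 in DBA/FVB. Of 9 proliferation markers limma called none (3 at an unadjusted p below 0.05), and their means of 10.51 to 10.74 in AKR/FVB and 10.57 to 10.72 in DBA/FVB overlapped, as did those of 8 adipocyte markers, 7.073 to 7.316 in AKR/FVB, against 6.996 to 7.303 in DBA/FVB. Hybridization controls were at 9.74 to 9.95 in AKR/FVB, against 10.27 to 10.72 in DBA/FVB. The 3′ to 5′ index, over actin, Gapdh and 4 poly-A spikes, was 1.66 to 2.22 in AKR/FVB, against 1.44 to 1.54 in DBA/FVB. As most of its parts are spikes, it does not measure the integrity of the marrow RNA alone. Neither control measure overlapped between the crosses, so its part in a difference cannot be told apart from that of the cross. With either measure as a covariate none of the 22 probe sets passed limma's adjusted test, and the 5 differences kept their sign. At an unadjusted p below 0.05 limma counted 4 with the hybridization controls and 2 with the index. Over all probe sets the 5541 calls fell to 12 with the hybridization controls and 53 with the index. With the hybridization controls as covariate the Idi1 differences were smaller, -0.19 at 1451122_at and -0.27 at 1423804_a_at, and that of Srebf2 at 1426744_at was 0.41, while Hmgcs1 was at -0.74 and -0.78. With the 3′ to 5′ index Idi1 was at -0.47 and -0.69, Srebf2 at 0.42 and Hmgcs1 at -0.51 and -0.46. The part of muscle or macrophage RNA in the differences, and that of strain variants under the probes, was not tested.

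The rest of the pathway was read from 4 lists of 54 measured genes, of which 12 (22.2%) were called, against 15.2% of all genes, 7 higher and 5 lower, with a median of 0.10, and 9 higher and 4 lower after quantile normalization. These lists, too, were chosen with earlier results of these data known. Only 8 of the 54 genes lay below the median gene level. With only probe sets above the median level fitted, 15 of 52 list genes were called, 8 higher and 7 lower, against 2958 of 11549 genes. The count of 12 became 5, 3 and 2 without AKR/FVB replicates 1, 2 and 3, and 8 without DBA/FVB replicate 3. Of 13 other enzymes of sterol synthesis 2 were higher, 1 was lower and 10 were not called (list median 0.14). Ggps1, which lengthens farnesyl diphosphate to the geranylgeranyl form and so leads away from sterols, was at 6.96, 6.63 and 6.41 in AKR/FVB, against 7.54, 7.56 and 7.69 in DBA/FVB. This was the largest difference of the list, -0.93 (SE 0.14, limma adjusted p = 0.0070). The 3 dimmer Ggps1 probe sets, at -0.74, -0.51 and -0.69, passed as well, and Ggps1 passed without each array. Tm7sf2, a sterol reductase, was 1.47-fold higher, and Erg28, which holds the sterol demethylation enzymes together, was 1.33-fold higher (limma adjusted p = 0.020 and 0.019). Without AKR/FVB replicate 1 or 3, Ggps1 alone of these 3 passed.

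Among 14 genes of SREBP processing and its partner factors 1 was higher and 2 were lower, with a median of -0.03. After quantile normalization 2 were higher and 1 was lower, and with the filter on level 1 was higher and 4 were lower. Nfya, the subunit of NF-Y that contacts the CCAAT box, was at 9.29, 9.40 and 9.31 in AKR/FVB, against 8.91, 8.99 and 8.81 in DBA/FVB (difference 0.43, limma adjusted p = 0.018). Its dimmer probe sets differed by -0.07 and -0.40 without passing, so the direction for the gene rests on 1 probe set. Mbtps2, a membrane protease that releases SREBPs, differed by -0.36, and Sp1 by -0.50 (limma adjusted p = 0.039 and 0.049), and other probe sets of Sp1 differed by -0.09 and -0.08 and did not pass. Sp1 did not pass after quantile normalization (limma adjusted p = 0.061). This count of 3 became 1, 0 and 0 without AKR/FVB replicates 1, 2 and 3, was 5 without DBA/FVB replicate 1 and 1 without DBA/FVB replicate 2 or 3.

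In sterol transport, storage and the oxysterol receptors 2 of 13 genes were higher and none was lower at the brightest probe set, with a median of 0.14. The 12 dimmer probe sets of the 11 uncalled genes in this list gave 3 calls, all lower and from 2 genes. Of all probe sets 6.73% were called lower. Lrp1, an endocytic receptor of lipoproteins and dying cells, was at 8.54, 8.72 and 8.85 in AKR/FVB, against 8.21, 7.84 and 7.55 in DBA/FVB, a difference of 0.84 (SE 0.16, limma adjusted p = 0.015). Nr1h3, the oxysterol receptor LXR alpha, was higher by 0.52 (limma adjusted p = 0.025), and Abcg1, a sterol exporter, differed by 0.31 without passing. Without AKR/FVB replicates 1, 2 and 3 the count became 1, 0 and 0, and it was 1 without DBA/FVB replicate 3. Of the 10 macrophage markers given above, the 5 called higher in the same arrays as Lrp1 and Nr1h3 were C1qa, C1qb, C1qc, Marco and Mertk. The 5 others, Adgre1, Csf1r, Vcam1, Cd68 and Cd5l, differed by 0.02, 0.10, -0.16, 0.41 and 0.31 without passing. The part of macrophage RNA in the differences of Lrp1 and Nr1h3 was not tested.

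Those lower calls, named after their values were seen, were of Abca1 and Stard4. Abca1, which exports cholesterol to lipoproteins, was at 3.46, 3.09 and 3.38 in AKR/FVB, against 5.05, 4.84 and 5.25 in DBA/FVB, at 1450392_at (difference -1.74, SE 0.14, limma adjusted p = 0.00090). At 1421839_at it differed by -1.02 (limma adjusted p = 0.012), and at its brightest probe set by -0.38 without passing (limma adjusted p = 0.13). The AKR/FVB mean at 1450392_at, 3.31, lay below the lower quartile of all probe sets, 3.72, near the floor of the arrays. The size of the difference at that probe set is therefore uncertain. Stard4, a carrier of sterols between membranes, was at 7.29, 6.55 and 6.64 in AKR/FVB, against 8.22, 8.26 and 8.195 in DBA/FVB, at 1429239_a_at (difference -1.40, SE 0.18, limma adjusted p = 0.0049). Its 2 remaining probe sets differed by -0.11 and 0.03 and did not pass.

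Of 14 fatty acid synthesis genes 2 were higher, 2 were lower and 10 were not called (list median 0.10). Me1, the malic enzyme that supplies NADPH, was at 6.97, 7.26 and 7.30 in AKR/FVB, against 8.16, 7.78 and 7.94 in DBA/FVB (difference -0.79, SE 0.13, limma adjusted p = 0.0096), and its other probe set differed by -0.14 without passing. Elovl6, an elongase, differed by -0.55 and its next probe set by -0.80, both past the test. Acaca, the carboxylase that makes malonyl-CoA, and Fads2, a desaturase, were 1.31-fold and 1.28-fold higher (limma adjusted p = 0.035 and 0.033). Their other probe sets differed by -0.01 for Acaca and by 0.10 and 0.15 for Fads2, and none of these passed. As means of their probe sets neither gene passed (limma adjusted p = 0.14 for Acaca and 0.22 for Fads2). The count of 4 became 2, 1 and 1 without AKR/FVB replicates 1, 2 and 3 and 2 without DBA/FVB replicate 1 or 3.

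**Figure D4:**
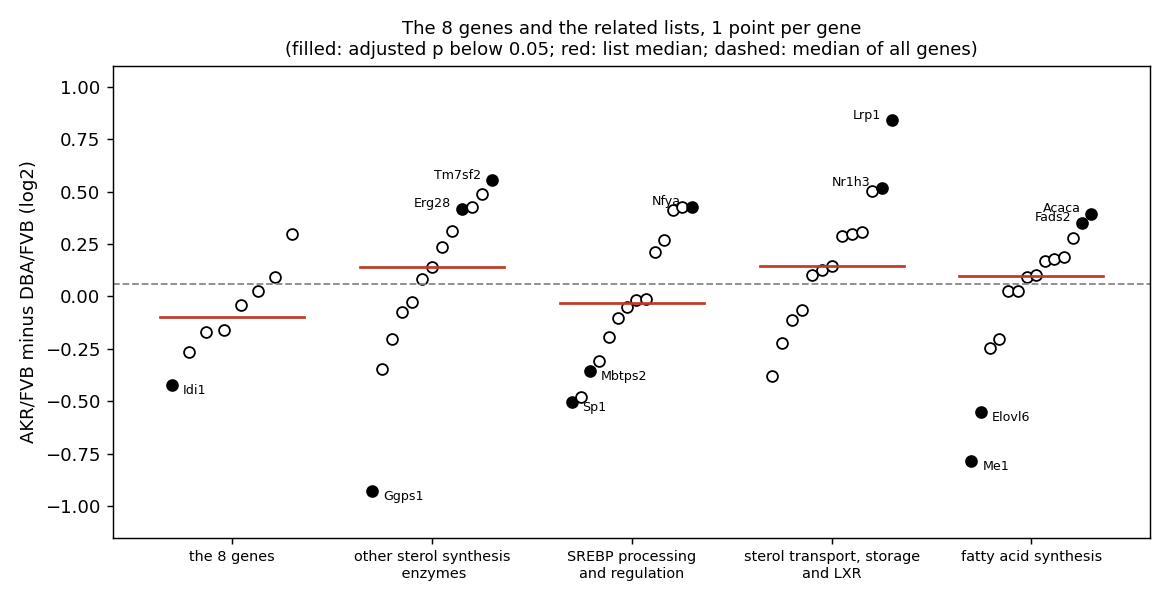
Log2 difference AKR/FVB minus DBA/FVB of the 8 genes and of the genes of the 4 related lists, 1 point per gene from its brightest probe set, ordered by size within a list. Filled, named points passed the test; the list medians in red lie between -0.10 and 0.14, beside 0.06 for all genes (dashed).

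The genes outside these lists whose values over the 6 arrays lay nearest to the mean profile of the 8 genes were Tkt, Zdhhc16, Eef1b2, Klhl20 and Cisd2. Their root mean square distances, over values centred on each gene's own mean, were 0.018 to 0.033 on the log2 scale, against 0.11 to 0.20 for the 8 genes themselves. As the named genes were picked for being nearest, their smaller distances follow from that choice. The centred mean profile ran only from -0.11 to 0.116, both in DBA/FVB arrays. None of the named genes was called (limma adjusted p = 0.47 to 0.83). These distances are a description, and shared regulation was not tested.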

How the data were processed

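Total RNA from snap-frozen marrow was extracted with Trizol, biotin-labelled and hybridised to Affymetrix arrays, per the labels' protocols. The values of the 45101 probe sets are log2, as deposited, and had been brought to a common scale by the authors. RMA and MAS5 stand in the submitters' processing notes, with no word on which gave these values, and scan dates are not known here. Array medians were 5.14 to 5.19, and the number of arrays limits the precision.

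Control probe sets, 64 in number, stayed out. Of the 45037 others, the platform annotation gives 1 symbol to 34945, several to 932 and none to 9160. The test was limma 3.58.1 (R 4.3.3), two-sided, with 4 residual degrees of freedom, on all probe sets and on the brightest single-symbol probe set per gene. The 3′ to 5′ index averages, over actin, Gapdh and 4 poly-A spikes, the 3′ value less the 5′ value. Named genes were all members, up to 6 called genes per list, filled to 3 by smallest p, and the 5 nearest profiles. Members and lists were chosen with earlier results of these data known, and the probe set ratios, promoter motifs and Idi2 after seeing the values. Alternatives covered normalization, a filter on level, the variance model, array weights, the replicate number, each array, the threshold, both control measures and averaging of probe sets. The fit was tested on simulated data. Not every gene of the pathway is reported here.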

Additional observations from a re-analysis of the deposited data

How the results depend on the processing

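Of the counts given above, those of called member probe sets, member genes, other pathway genes, all probe sets and all genes stayed within 1.5 times under quantile normalization, median centring, the filter on level, and the variance trend with robust estimation. Array weights gave 2 member genes and 19 other pathway genes. With the replicate number as a block, 3 member probe sets and 0 member genes were called by limma (3 genes at an unadjusted p below 0.05). The labels do not say whether same-numbered arrays were paired. Deviations of same-numbered arrays from their group means correlated at 0.086, 0.057 and 0.152, against -0.214 to 0.074 for the other pairs. AKR/FVB replicate 2 correlated best with DBA/FVB replicate 1 (0.067). These values do not settle whether there was a pairing. At a threshold of 0.01 limma called 0 member probe sets, 0 member genes, 2 other pathway genes, 1214 probe sets and 526 genes, with 8 member probe sets and 2 member genes at an unadjusted p below 0.05. The 3′ to 5′ index as covariate left 0, 0, 0, 53 and 3, and the hybridization controls 0, 0, 0, 12 and 2, in the same order, with 0 and 1 member genes and 10 and 9 other pathway genes at an unadjusted p below 0.05. Averaging a gene's probe sets gave 2 member genes, 1 higher and 1 lower. Leaving out 1 array gave 0 to 5 member probe sets, 0 to 2 member genes, 2 to 14 other pathway genes, 1683 to 5581 probe sets and 685 to 3248 genes, and these fits have fewer samples.

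Differences that changed sign were all of results without a call, except Nfya. Sqle became -0.0057 (gene fit -0.0065) with array weights, -0.057 with hybridization controls and -0.055 without AKR/FVB replicate 1, and leaving out 1 array gave -0.055 to 0.077. Fdft1 at 1438918_at became 0.043 with array weights, 0.18 with the 3′ to 5′ index, and 0.11, 0.12 and 0.0040 without AKR/FVB replicate 3 and DBA/FVB replicates 1 and 3. Fdft1 at 1438322_x_at became 0.067 with hybridization controls and 0.035 without AKR/FVB replicate 1, and the mean of its probe sets was 0.13. Lss at 1420013_s_at became -0.14 with the 3′ to 5′ index and -0.027 without DBA/FVB replicate 1 (-0.027 to 0.20 over the fits without 1 array), and at 1426913_at -0.024 with hybridization controls. Fdps became 0.021 with the 3′ to 5′ index and its dim probe set 0.093 with hybridization controls, which also gave Cyp51 at 1422533_at 0.037 and Hmgcs1 at 1441536_at -0.11. Nfya was -0.014 as the mean of its probe sets. The causes were not tested. Probe sets near the floor of the arrays limit what can be said of Fdps at 1438150_at, Hmgcs1 at 1441536_at and Cyp51 at 1422534_at.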

Other observations

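The genes of the isoprenoid part of the pathway with a lower call in AKR/FVB, Hmgcs1, Idi1 and Ggps1, are all on chromosome 13 in the reference table, while Srebf2 and Sqle are on chromosome 15. Idi1 and Hmgcs1 lie far apart on it, with promoter windows from 8885356 and 119690101. Hmgcs1 was not called at its brightest probe set (-0.16, limma adjusted p = 0.45 by gene). The shared chromosome was seen after the values were known, and a relation to position was not tested.

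At their brightest probe sets Insig2 and Insig1, which retain SREBPs in the endoplasmic reticulum, did not pass. They differed by -0.31 and 0.41, with no overlap between the groups and limma adjusted p = 0.056 and 0.063. Insig2 was at 7.42, 7.44 and 7.42 in AKR/FVB, against 7.82, 7.60 and 7.80 in DBA/FVB, and Insig1 was at 7.28, 7.21 and 7.16 in AKR/FVB, against 7.09, 6.68 and 6.64 in DBA/FVB. A dimmer Insig2 probe set, 1417982_at, was at 7.09, 7.02 and 6.84 in AKR/FVB, against 7.58, 7.44 and 7.84 in DBA/FVB, and passed (difference -0.64, limma adjusted p = 0.017), and 1417980_a_at differed by -0.42 (limma adjusted p = 0.054). A dimmer probe set of Nfyb, another NF-Y subunit, was lower and passed as well (-0.35, limma adjusted p = 0.048), while its brightest did not (-0.48, limma adjusted p = 0.052). These 3 genes were singled out after their values were seen.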
